A study of Homo sapiens with 6 samples.

Results

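The genes described here make, restrain and break down polyamines: ODC1, AMD1, SRM and SMS for synthesis, OAZ1, OAZ2 and AZIN1 for control of ornithine decarboxylase, and SAT1, SMOX and PAOX for acetylation and oxidation. They were chosen by name from a count table of 18398 genes, and all 10 were present in it and were tested. RNA was sequenced from SUM159, a triple-negative human breast cancer cell line, in 3 control libraries from cells carrying pLVX, a lentiviral vector, with no added POGK and 3 libraries from stable cells that overexpress POGK, a KRAB-domain protein derived from a pogo transposable element, from that vector. All 6 libraries came from cells grown in the same medium with serum, insulin and hydrocortisone, so the controls received both hormones as well. The stated aim was to find genes regulated by POGK. Whether the stable cells were 1 clone or a pool, and whether replicates were separate cultures, is not given in the sources used here, so each p-value covers only the spread among the 6 libraries, and that spread may be technical.

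Polyamines are small, positively charged metabolites that bind nucleic acids and are needed for growth and protein synthesis. Ornithine decarboxylase makes putrescine, decarboxylated S-adenosylmethionine supplies the aminopropyl groups, and the spermidine and spermine synthases add them in turn. Antizymes bind ornithine decarboxylase and send it to the proteasome, the antizyme inhibitor captures antizyme, and acetylation followed by oxidation returns the higher polyamines toward putrescine. Proliferating cancer cells commonly depend on the pathway, and ODC1 is a textbook target gene of MYC.

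The libraries held 27645789 to 33689230 counts. POGK stood at 69.0 ± 7.58 CPM (counts scaled to library size by TMM) in the control group and at 768 ± 22.0 CPM in the overexpressing group (SD, n = 3 each), so the targeted gene matched the labels. In bulk RNA, fewer cells of a type and less RNA per cell cannot be told apart. edgeR's quasi-likelihood test called 66.0% of 15889 genes at an adjusted p below 0.05, 32.7% higher and 33.3% lower in POGK cells, and CPM ranges of the groups did not overlap for 73.7%. Library size alone as scaling moved the median log2 difference of all genes from 0.00 to 0.19 and the split to 6575 higher (41.4%) and 3925 lower genes (24.7%), so directions here are relative to TMM scaling. Spread was unequal: among genes of at least 10 CPM the median coefficient of variation was 10.4% in control and 2.79% in POGK libraries. All 8 mesenchymal markers were present, and 6 were called lower and 2, CDH2 and AXL, higher. Their sum was 9597 to 11996 CPM in control and 5715 to 5773 CPM in POGK libraries, mainly through VIM, with means of 5959.7 and 3344.5 CPM, and FN1, with means of 3055 and 962 CPM. Of 8 luminal markers 6 were present, with a sum of 438 to 501 CPM in control and 487 to 494 CPM in POGK libraries. KRT18 was called higher, KRT8, KRT19 and GATA3 were called lower, and EPCAM and ESR1 did not exceed 0.337 CPM in any library. The 3 blood and endothelial markers present, of 6, summed to 5.72 to 7.78 CPM in control and 5.79 to 6.51 CPM in POGK libraries, with PTPRC called higher and CD14 and PECAM1 lower. The part that these marker differences have in the results below was not tested.

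Sequence is shown as background for ODC1, SRM, OAZ1 and OAZ2, and any link to the values that follow was not tested. The promoter table, credited to RefSeq on GRCh38.p14, gives 250 bases before to 50 after each start and held windows for 7 of the 10 genes. CACGTG, the E-box that MYC and MAX bind, reads the same on both strands and was in 7.26% of all 35116 windows of this length, or for 8.77% of the 27305 genes, some of which have several windows. It was found for 2 of the 7 genes, ODC1 and SRM, whose windows are printed with each E-box in capitals.
ODC1 chr2:10447963-10448262, minus strand: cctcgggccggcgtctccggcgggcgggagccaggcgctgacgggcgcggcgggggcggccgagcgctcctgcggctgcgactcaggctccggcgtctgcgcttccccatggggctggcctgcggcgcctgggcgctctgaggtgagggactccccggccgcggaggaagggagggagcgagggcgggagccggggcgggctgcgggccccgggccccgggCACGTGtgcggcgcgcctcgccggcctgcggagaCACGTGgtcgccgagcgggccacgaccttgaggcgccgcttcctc
SRM chr1:11059969-11060268, minus strand: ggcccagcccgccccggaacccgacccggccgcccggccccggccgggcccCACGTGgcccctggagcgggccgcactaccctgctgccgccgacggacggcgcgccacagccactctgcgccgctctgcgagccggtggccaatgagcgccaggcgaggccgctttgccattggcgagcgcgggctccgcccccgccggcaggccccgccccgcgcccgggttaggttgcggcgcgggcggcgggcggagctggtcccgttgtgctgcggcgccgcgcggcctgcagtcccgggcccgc
The ODC1 window belongs to an alternative start, and both of its E-boxes lie in intron 1 of the canonical transcript. The E-box of SRM lies upstream, outside the transcript. The window at the main start of ODC1 held none, nor did those of AMD1, SMS, OAZ1, OAZ2 and SAT1. A match is only a run of letters and says nothing of binding in these cells.

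Antizyme mRNAs hold a stop codon inside their reading frame, and ribosomes shift past it more often when polyamines are plentiful. The stretch of hg38 around that site is printed with the last codon before the shift and the stop codon, TCCTGA, in capitals.
OAZ1 chr19:2271426-2271455, plus strand: ggcctcggtggtgcTCCTGAtgcccctcac
OAZ2 chr15:64691503-64691532, minus strand: ggcctctgtggtgcTCCTGAtgcccctcac
They are identical at 29 of 30 bases and differ by G7T, from OAZ1 to OAZ2, counted from the 5′ end of the printed run. Read counts measure the mRNA and not this shift, so the amounts of antizyme protein and of any enzyme were not measured here.

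Genes for all 4 steps of synthesis were higher in POGK cells. The increase was 2.76-fold for ODC1, 2.15-fold for SRM, 1.86-fold for AMD1 and 1.42-fold for SMS. All 3 genes of acetylation and oxidation were lower, whereas the antizyme mRNAs did not pass the test and AZIN1 rose slightly. In all, 5 of the 10 genes were called higher, beside 32.7% of all genes tested, and 3 were called lower, beside 33.3%. Control and POGK ranges of CPM were separate for 8 of the 10, beside 73.7% of all genes. Called genes with at least a 2-fold difference were ODC1 and SRM among those higher, beside 9.58% of all genes, and SAT1 and PAOX among those lower, beside 12.7%. PAOX had few counts and entered the test through the control group, in which it was higher. With a filter of 1 CPM in 3 libraries it was not tested, and 2 of the 10 genes were called lower. The median log2 fold change was 0.16 over the 10 genes and 0.0025 over all genes tested. The plots of CPM by library and of log2 fold change by role show these values.

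**Figure D1:**
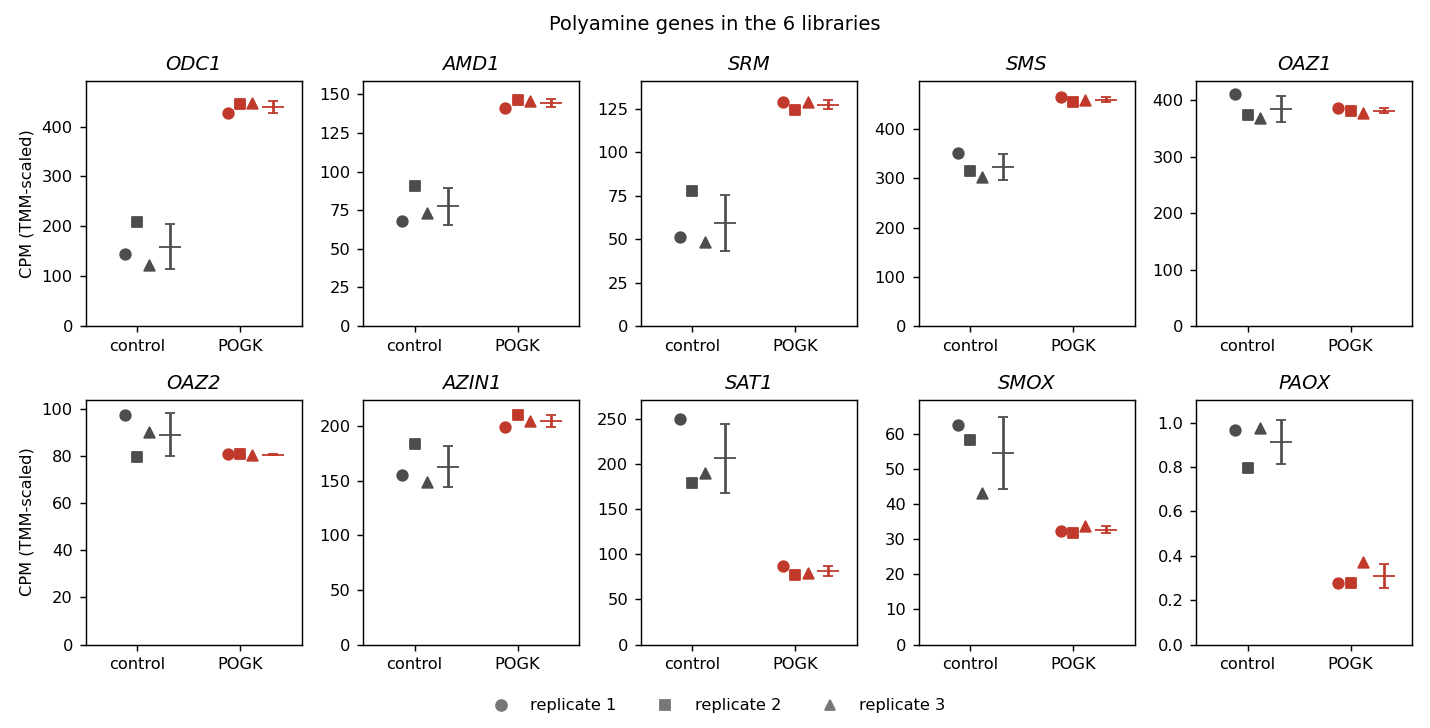
CPM (y axis, linear, from 0) of each of the 10 genes in the 3 control and 3 POGK libraries, 1 symbol per replicate, with the mean and SD of each group beside the points. ODC1 lies between 123 and 209 CPM in control libraries and between 426 and 447 in POGK libraries, and the groups overlap for OAZ1 and OAZ2.

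**Figure D2:**
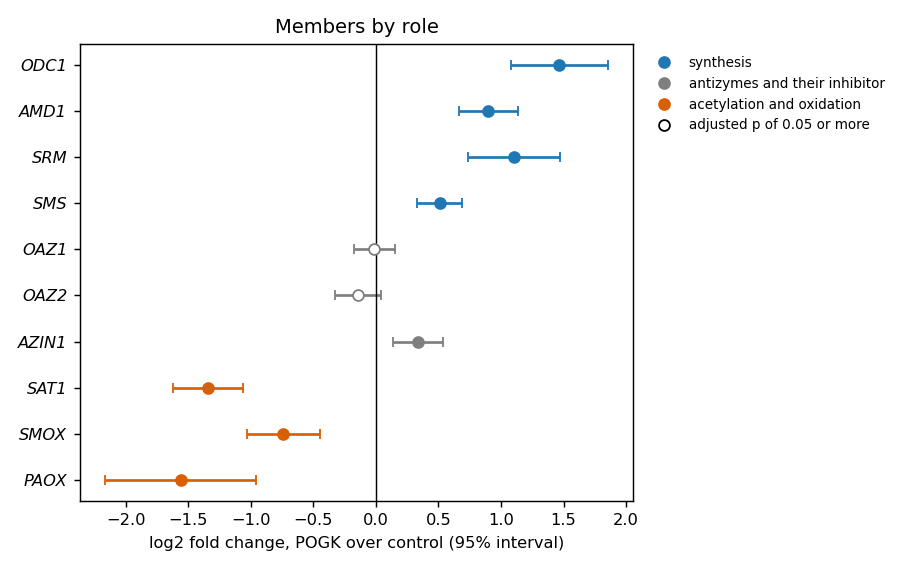
Log2 fold change of POGK over control cells (x axis) with its 95% interval from edgeR for each gene, coloured by role, with open symbols at an adjusted p of 0.05 or more. The 4 synthesis genes lie above 0, from 0.51 for SMS to 1.47 for ODC1, and SAT1, SMOX and PAOX lie below it.

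ODC1 encodes ornithine decarboxylase, the first and highly regulated enzyme of the pathway (ENSG00000115758; hg38 chromosome 2, 10439968 to 10448327, minus strand). Its levels were 145, 209 and 123 CPM in control replicates 1, 2 and 3 and 426, 446 and 447 CPM in the POGK replicates. Every POGK library lay above every control library, and control replicate 2 was the highest of the controls. The means were 159 ± 44.9 and 439.6 ± 11.5 CPM (SD, n = 3 each), with a log2 fold change of 1.47, a standard error of 0.17 and an edgeR adjusted p of 1.15e-04. Among all genes tested, 96.4% had a smaller log2 fold change. The value ran from 1.31 without control replicate 3 to 1.72 without control replicate 2. The authors' deposited table gave 1.47 with a standard error of 0.23. ODC1-DT, the transcript that starts beside ODC1 and runs away from it, had 9, 18 and 9 counts in control and 22, 31 and 26 in POGK libraries, with an edgeR log2 fold change of 0.89 (adjusted p 0.0319).

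AMD1 encodes adenosylmethionine decarboxylase, which makes the donor of aminopropyl groups (ENSG00000123505; chromosome 6, 110874770 to 110898879, plus strand). It stood at 68.1, 90.9 and 73.4 CPM in control libraries and at 141, 146 and 146 CPM in POGK libraries. Again the groups did not overlap and control replicate 2 was the control nearest to them. From 77.5 ± 11.9 it reached 144 ± 2.60 CPM, a log2 fold change of 0.90 (standard error 0.10, edgeR adjusted p 9.76e-05).

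SRM, the gene of spermidine synthase (ENSG00000116649; chromosome 1, 11054584 to 11060020, minus strand), followed ODC1 closely. The control libraries had 51.4, 77.7 and 48.2 CPM and the POGK libraries 129, 124 and 129 CPM. Here too control replicate 2 was well above the other controls, at 47.4% of the log2 distance from them to the POGK mean. The means were 59.1 ± 16.2 and 127 ± 2.56 CPM, and the log2 fold change was 1.10 (standard error 0.16, edgeR adjusted p 3.77e-04). It ran from 0.97 without control replicate 3 to 1.35 without control replicate 2.

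SMS encodes spermine synthase, which acts after SRM (ENSG00000102172; chromosome X, 21940709 to 21994837, plus strand). Its control values were 353, 315 and 302 CPM and its POGK values 466, 455 and 460.2 CPM. The groups did not overlap, and control replicate 1 was the highest control, unlike for the other synthesis genes. The log2 fold change was 0.51 (standard error 0.08, edgeR adjusted p 4.71e-04). A row that the table describes as an SMS pseudogene, AL354714.2, had 34, 30 and 41 counts in control and 70, 59 and 60 in POGK libraries, and reads could be split between it and SMS.

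OAZ1 encodes the widely expressed antizyme (ENSG00000104904; chromosome 19, 2269509 to 2273490, plus strand). Its levels were 411, 373 and 369 CPM in control and 386, 381 and 376 CPM in POGK libraries, so the POGK values lay inside the control range. The log2 fold change was -0.01 with a 95% interval from -0.18 to 0.15 (edgeR adjusted p 0.892). Its sign depends on scaling: with library size alone the value was 0.18 and OAZ1 passed as higher, at an adjusted p of 0.0116 in a range of 0.0116 to 0.972 over all alternatives.

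OAZ2, a second antizyme gene with much lower counts (ENSG00000180304; chromosome 15, 64687573 to 64703281, minus strand), had 97.5, 79.6 and 90.0 CPM in control and 80.6, 80.9 and 80.3 CPM in POGK libraries. Control replicate 2 lay below all POGK libraries and the other controls above them. The log2 fold change was -0.14 with a 95% interval from -0.33 to 0.04 (edgeR adjusted p 0.149). Without control replicate 2 it was -0.22 and passed at an adjusted p of 0.0104, the lowest in a range up to 0.526, and with library size alone it was 0.05.

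AZIN1 encodes the antizyme inhibitor, an inactive relative of ornithine decarboxylase that binds antizyme (ENSG00000155096; chromosome 8, 102826111 to 102893864, minus strand). Control libraries had 156, 184 and 148 CPM and POGK libraries 199.5, 210.3 and 205 CPM. The groups did not overlap, by a margin smaller than the spread of the controls. The rise from 163 ± 18.7 to 205 ± 5.36 CPM was a log2 fold change of 0.33 (standard error 0.09, edgeR adjusted p 0.0089), which 67.1% of all genes tested fell below. AZIN1-AS1, the antisense RNA listed for this locus, had at most 45 counts in any library and did not pass (edgeR adjusted p 0.170).

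SAT1 encodes spermidine/spermine acetyltransferase, the inducible first step of polyamine breakdown and export (ENSG00000130066; chromosome X, 23783173 to 23786210, plus strand). Its control levels were 250.2, 179 and 191 CPM and its POGK levels 87.4, 77.5 and 79.2 CPM. Every POGK library was below every control, and control replicate 1 was the highest. The fall from 207 ± 38.3 to 81.4 ± 5.31 CPM was 2.54-fold, with a log2 fold change of -1.34, a standard error of 0.12 and an edgeR adjusted p of 3.22e-05. Only 7.80% of the genes tested had a lower log2 fold change.

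SMOX encodes spermine oxidase, which turns spermine directly into spermidine (ENSG00000088826; chromosome 20, 4120980 to 4187747, plus strand). It had 62.5, 58.1 and 43.1 CPM in control and 32.3, 31.8 and 33.7 CPM in POGK libraries, without overlap and with control replicate 3 nearest to the POGK values. The fall was 1.67-fold, a log2 fold change of -0.74 (standard error 0.13, edgeR adjusted p 9.22e-04).

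PAOX, the gene of the oxidase that acts on acetylated polyamines (ENSG00000148832; chromosome 10, 133379261 to 133391694, plus strand), was by far the scarcest of the 10. It had 24, 25 and 29 counts in control and 10, 10 and 11 in POGK libraries, or 0.914 ± 0.100 and 0.309 ± 0.054 CPM. All control libraries but just 1 POGK library reached the filter level of 0.315 CPM, so the gene entered the test through the group in which it was higher. With that limit, its log2 fold change was -1.56 (standard error 0.27, edgeR adjusted p 8.36e-04). In GENCODE, 61.0% of its exonic bases are shared with another gene on the same strand.

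Levels were compared between genes only as CPM per kilobase of annotated exon. In control cells the order ran from SMS (152 ± 12.3) through OAZ1 (112 ± 6.63), SAT1 (83.2 ± 15.4), ODC1 (48.1 ± 13.6), SRM (31.2 ± 8.54), AZIN1 (26.5 ± 3.05), SMOX (18.5 ± 3.46), OAZ2 (11.6 ± 1.17) and AMD1 (7.60 ± 1.17) to PAOX (0.406 ± 0.045). Among neighbours in that order, the ranges of ODC1 and SRM and those of SRM and AZIN1 overlapped. In POGK cells ODC1 was second at 133 ± 3.49, SAT1 sixth at 32.8 ± 2.14 and AMD1 seventh at 14.2 ± 0.25, and the ranges of AZIN1 and SAT1 alone overlapped among neighbours. The order depends on the length used: per kilobase of the canonical transcript, a choice added after seeing the data, OAZ1 was first in both groups, at 335 ± 19.8 in control and 332 ± 4.23 in POGK cells, and SMS came after SAT1, with overlapping ranges, in control cells and directly after OAZ1 in POGK cells.

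Ratios within a library do not depend on scaling between libraries, and the plot of ratios shows them. They are given as log2 ratios of counts per kilobase, as a description with no test. ODC1 to OAZ1 was -1.45, -0.78 and -1.53 in control and 0.20, 0.28 and 0.30 in POGK libraries, a difference of 1.51 with no overlap. Which of both genes is higher in POGK cells depends on the length used, since OAZ1 lay above ODC1 (178 CPM per kilobase) with canonical transcripts. SAT1 to ODC1 was 1.21, 0.19 and 1.04 in control and -1.87, -2.11 and -2.08 in POGK libraries. That ratio of the breakdown to the synthesis gene was 7.12-fold lower in POGK cells, and control replicate 2 had the lowest control value. SRM to SMS was -2.61, -1.85 and -2.48 against -1.69, -1.70 and -1.67, and control replicate 2 was close to the POGK libraries. AZIN1 to OAZ1 was -2.24, -1.86 and -2.15 against -1.79, -1.69 and -1.71, a difference of 0.35. OAZ2 to OAZ1 overlapped between the groups, with -3.23, -3.39 and -3.19 against -3.42, -3.39 and -3.39.

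**Figure D3:**
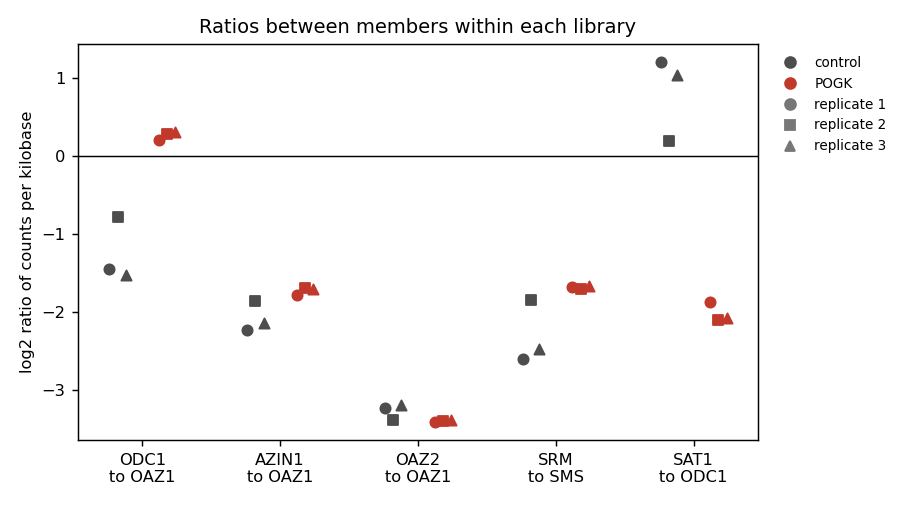
Log2 ratio of counts per kilobase (y axis) for 5 pairs of genes in each control (grey) and POGK (red) library, 1 symbol per replicate. ODC1 to OAZ1 is higher in every POGK library, with a sign that depends on the lengths used, SAT1 to ODC1 is lower in every POGK library, and OAZ2 to OAZ1 overlaps.

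Control libraries differed among themselves in these genes. For 6 of the 8 called genes, control replicate 2 was the control nearest to the POGK mean on the log2 scale, and the same held for 64.9% of the 10487 genes called in all. Over the 9 genes of at least 10 CPM, the coefficient of variation was 5.93% to 28.2% in control libraries, highest for ODC1, and 0.402% to 6.53% in POGK libraries. Leaving out any 1 library ended none of the 8 calls. What sets control replicate 2 apart was not tested.

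The genes whose pattern over the 6 libraries was most like that of ODC1 were sought among 12901 protein-coding genes. Likeness was the root mean square difference of log2 CPM after centring each gene on its own mean. MPHOSPH6, an exosome-associated protein gene, was nearest at 0.063, followed by EIF5A at 0.073 and NME1, a nucleoside diphosphate kinase gene, at 0.080. MPHOSPH6 had 6.24, 9.54 and 6.06 CPM in control and 19.6, 21.2 and 19.8 CPM in POGK libraries. NME1 had 30.9, 49.2 and 30.9 CPM against 100.1, 96.8 and 98.3 CPM. Both have the higher control replicate 2 seen for ODC1, which follows from choosing them by likeness over these same libraries. SRM ranked 156 by this measure, at 0.189, and AMD1 ranked 910, at 0.327. NME1 held CACGTG in exon 1, and the windows of MPHOSPH6 and EIF5A held none.

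Other genes of the pathway were grouped in 6 lists of 49 genes, of which 40 were tested and 9, MTAP, SATL1 and ARG1 among them, are not analysed here. Over the lists, 15 were called higher and 13 lower, a median log2 fold change of 0.15, beside 32.7% and 33.3% of all genes tested. The plot of the other pathway genes shows each value.

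**Figure D4:**
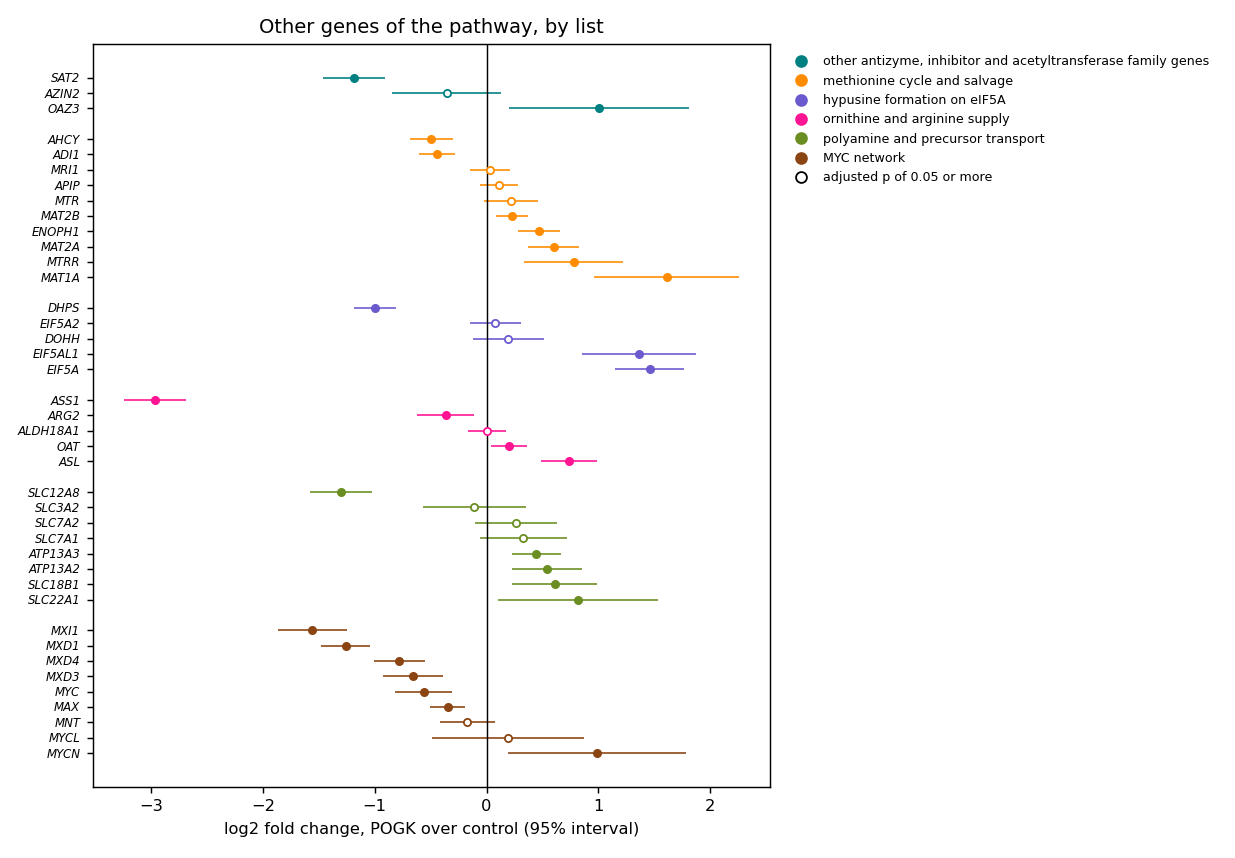
Log2 fold change of POGK over control cells (x axis) with its 95% interval from edgeR for the 40 tested genes of the 6 lists, coloured by list, with open symbols at an adjusted p of 0.05 or more. ASS1 has the lowest value at -2.97, and EIF5A and EIF5AL1 lie at 1.46 and 1.36.

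Hypusine, the modified lysine of the translation factor eIF5A, is the best known product made from spermidine. Of the 5 genes of this list, 2 were called higher and 1 lower (median log2 fold change 0.20), beside 32.7% and 33.3% of all genes. EIF5A, the factor itself, rose from 306, 425 and 292 CPM in control to 944, 931 and 937 CPM in POGK libraries, a log2 fold change of 1.46 (standard error 0.14, edgeR adjusted p 3.35e-05). EIF5AL1, a near-identical copy whose reads cannot be told apart with certainty, had 0.816 ± 0.157 and 2.13 ± 0.373 CPM. DHPS, the enzyme of the first step of the modification, went the other way, from 96.0, 81.1 and 88.0 CPM to 46.2, 44.9 and 41.8 CPM, a fall of 1.99-fold (edgeR adjusted p 1.90e-05). DOHH, the enzyme of the second step, did not pass, with a log2 fold change of 0.20 and a 95% interval from -0.12 to 0.51. With library size alone, 4 of the 5 were called higher, beside 41.4% of all genes under that scaling.

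S-adenosylmethionine is made from methionine, and the by-product of polyamine synthesis is salvaged back to it. Of 10 tested genes, 5 were called higher and 2 lower (median log2 fold change 0.22), beside 32.7% and 33.3% of all genes. With library size alone 8 were higher, where 41.4% of all genes were. MAT2A, the synthetase subunit that makes S-adenosylmethionine outside the liver, rose from 136, 161 and 179 CPM to 227, 248 and 248 CPM, a log2 fold change of 0.60 (edgeR adjusted p 7.80e-04). AHCY, which clears S-adenosylhomocysteine, fell from 342 ± 35.6 to 243 ± 5.59 CPM (edgeR adjusted p 9.24e-04). ADI1, a dioxygenase of the salvage route, fell from 150.4 ± 10.2 to 111 ± 2.08 CPM (edgeR adjusted p 5.84e-04). Both AHCY and ADI1 had all POGK libraries below all controls.

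Ornithine comes from arginine and other amino acids. Of 5 tested genes, 2 were called higher and 2 lower (median log2 fold change 0.0044), beside 32.7% and 33.3% of all genes. ASS1, argininosuccinate synthase of arginine synthesis, had the lowest log2 fold change of the 40 genes. It fell from 403, 288 and 337 CPM to 44.8, 42.7 and 43.8 CPM, a 7.83-fold decrease (log2 fold change -2.97, standard error 0.12, edgeR adjusted p 1.23e-06). ASL, argininosuccinate lyase, the step that follows ASS1, rose from 7.37 ± 0.65 to 12.3 ± 0.48 CPM (edgeR adjusted p 3.87e-04). ARG2, the mitochondrial arginase that yields ornithine, fell from 20.9 ± 2.70 to 16.3 ± 0.86 CPM (edgeR adjusted p 0.0180). Without POGK replicate 2 or 3 ARG2 did not pass, at 0.0755 and 0.0774, in a range of 0.0143 to 0.169, and 1 gene was then called lower. The number called higher was 1 without control replicate 3 or any POGK replicate.

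Of 8 tested genes of transport, 4 were called higher and 1 lower (median log2 fold change 0.39), beside 32.7% and 33.3% of all genes, and 2 were higher without control replicate 3. ATP13A3 and ATP13A2, polyamine-transporting P-type ATPases, rose from 176 ± 23.4 to 240.4 ± 10.2 CPM (edgeR adjusted p 0.0034) and from 32.9 ± 6.83 to 47.8 ± 1.00 CPM (edgeR adjusted p 0.0071). SLC12A8, a cation-chloride cotransporter family gene, fell from 50.2, 37.2 and 45.6 CPM to 19.5, 16.5 and 17.8 CPM, a 2.47-fold decrease (edgeR adjusted p 3.36e-05). The arginine transporter gene SLC7A1 did not pass, and its POGK values of 248 to 249.8 CPM lay within the control range of 161 to 266 CPM.

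Of 3 tested family relatives of the antizyme, inhibitor and acetyltransferase genes, 1 was called higher and 1 lower (median log2 fold change -0.36), beside 32.7% and 33.3% of all genes. SAT2, named for its likeness to SAT1, fell from 58.2, 41.4 and 47.4 CPM to 20.9, 22.7 and 21.1 CPM. Its log2 fold change was -1.18 (standard error 0.12, edgeR adjusted p 5.72e-05). OAZ3, the testis antizyme, was close to the filter level, at 0.176 ± 0.036 and 0.357 ± 0.041 CPM, and reached it in POGK libraries alone. It was called higher at an edgeR adjusted p of 0.0319 but not when any 1 library was left out, in a range of 0.0131 to 0.169. AZIN2, a relative of AZIN1, did not pass (log2 fold change -0.36, edgeR adjusted p 0.171), but without control replicate 2 it passed as lower at 0.0295, in a range of 0.0295 to 0.515.

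In the network around MYC, 6 of 9 tested genes were called lower, beside 33.3% of all genes, and 1 higher, beside 32.7% (median log2 fold change -0.56). The MYC antagonists MXI1, MXD1 and MXD4 fell 2.94-fold, 2.39-fold and 1.72-fold, and all 3 passed the edgeR test, the weakest being MXD4 at an adjusted p of 1.90e-04. MXD3 of this list was also called lower (log2 fold change -0.66, edgeR adjusted p 0.0011). MNT did not pass (log2 fold change -0.17, edgeR adjusted p 0.189), and its groups overlapped. MXI1 went from 186, 124 and 139.7 CPM in control to 49.7, 52.5 and 50.3 CPM in POGK libraries, with control replicate 2 the lowest control. MYC had 624, 662 and 489 CPM in control and 408, 394 and 399.6 CPM in POGK libraries. MYC was called lower (edgeR adjusted p 0.0019), and any link between its level and that of ODC1 was not tested. MAX was called lower as well (log2 fold change -0.35, edgeR adjusted p 0.0018), and its groups did not overlap. MYCN, the 1 gene called higher, had at most 1.11 CPM in any library, overlapped between the groups and was not called without control replicate 2 or 3 or without POGK replicate 1 or 2.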

How the data were processed

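The authors deposited 1 table of raw read counts per Ensembl gene for 6 libraries, 3 control and 3 POGK, grouped here by their labels. Per the labels' protocols, RNA was depleted of ribosomal RNA and reads were aligned to hg38. Per the submitters' processing notes, Trimmomatic, STAR, SAMtools, deepTools and featureCounts were used. No source used here gives the annotation or the strand setting of the counting, so reads of overlapping antisense genes cannot be told apart. Every gene in the table had at least 21 reads in all, and genes below that are not analysed here. Per the file headers, the authors also deposited a normalized signal per library, log2 fold changes, a test score and p-values. These were not tested, and a value from them is credited to the authors' deposited table.

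All genes were fitted with edgeR 4.0.16 in R 4.3.3 (quasi-likelihood test, robust, TMM scaling, default filter on low counts, Benjamini-Hochberg adjustment over 15889 genes). Standard errors and 95% intervals came from the F statistic. The test pools the spread of both groups. Pairs of libraries of 1 group had a chi-square statistic per gene of 1.36 to 2.62 in POGK and 22.5 to 49.7 in control cells, above sampling noise, and all 6 were kept. Positions and exon lengths came from GENCODE release 44, which matched 18264 identifiers. The genes and lists were chosen with earlier results of these data known. By rule, all 10 genes, POGK, the 3 genes with the smallest adjusted p of each list and the 3 most like ODC1 were named. DOHH, SLC7A1, MYC and MYCN were named after their values were seen. Alternatives were DESeq2 1.42.0, limma 3.58.1 (voom, also with weights per group), other scaling, other filters, a replicate block and each library left out. On simulated counts (15643 genes), 76.8% of genes changed 2-fold and 99.0% of those changed by 2 on the log2 scale were recovered, and 8.60% of all calls were unchanged genes. Only 95 tested genes were changed 2-fold there and 98 by 2 on the log2 scale, with the same spread in both groups. In the data 66.0% of genes were called and the spread was unequal, so these rates need not hold for this comparison.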

Additional observations from a re-analysis of the deposited data

How the results depend on the processing

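The 8 calls among the 10 genes kept their direction and stayed past the threshold under each alternative that could be run, and PAOX was not tested with a filter of 1 CPM in 3 libraries. The log2 fold changes of OAZ1 and OAZ2 were 0.18 and 0.054 with library size alone, and with 1 library left out they ran from -0.043 to 0.041 and from -0.22 to -0.070. Shared replicate numbers do not pair the libraries by the labels, and the deviations of same-numbered libraries had correlations of 0.087, 0.041 and 0.0028. With the replicate number as a block, 5136 genes were higher and 5103 lower, and 5 and 3 of the 10. Among the lists, library size alone gave 8 higher genes of the methionine list, 4 of the hypusine list and 1 lower of the ornithine list. Under that scaling 41.4% of all genes were higher and 24.7% lower. The family list had 0 higher with DESeq2, group weights, the 1 CPM filter or the replicate block. The MYC list had 0 higher with DESeq2, group weights or the 1 CPM filter. The ornithine list had 1 higher with DESeq2 or the block. With 1 library left out, counts ran from 0 to 0 higher and 1 to 2 lower (family), 1 to 2 higher and 1 to 2 lower (ornithine), 2 to 5 higher (transport) and 0 to 1 higher (MYC). Over all genes, the same fits called 4400 to 5686 higher and 4567 to 5587 lower. Causes were not tested. PAOX and OAZ3 are limited by depth.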
